A study of Mus musculus with 21 samples.

Results

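Mouse chromosome 9 was examined region by region in 13 liver tumours and 8 tumour-free livers. The members are the probes of the array that its files place on chromosome 9 of build mm9 and that the scanner software marked as well above background on 4 or more of the 21 arrays. This rule kept 1521 of the 2045 chromosome 9 probes, against 30395 of 39429 probes on the whole array, and the kept probes carry 1208 gene names. Each tumour's value for a probe, called its shift here, is the log2 signal relative to the array's 75th percentile, minus the probe's mean over the 8 livers, minus the tumour's median over all autosomal probes. A shift of 1 is a doubling of signal relative to the livers and to the rest of the tumour's genome. The shifts were summarised as medians in 13 windows of 10 Mb, numbered from the start of the chromosome. The chromosome was picked out because of these tumour shifts, so everything below that sets tumours against livers is a description with no support drawn from it, and log2 fold changes there are given with their standard error (SE) from limma and no p-value. The comparison of knockout with wild-type tumour-free liver is the only one that the choice did not use.

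All mice were on the C57BL/6J background. The KO tumours were 6 tumours from 5 untreated mice with a Trp53 knockout in the liver, and the KO livers were 4 untreated livers of that genotype. All 6 KO tumours carry the label HCC/CCC, for hepatocellular (HCC) and cholangiocellular carcinoma (CCC). The label does not say whether a tumour was of 1 type or mixed. The DEN tumours were 7 hepatocellular carcinomas from 5 Trp53 wild-type mice given an intraperitoneal injection at day 15 of 10 µg N-nitrosodiethylamine (DEN), a liver carcinogen, per g of body weight, and the WT livers were 4 untreated wild-type livers. The sources used here do not give the driver or the cells of the Trp53 deletion, the ages or the sexes, and mice were told apart by the numbers in the sample titles. Tumours of 1 mouse were averaged before the main fit, which left 18 mice. Alternative fits with slide as a random block, or with scan day, took the arrays separately. Tumours of 1 mouse counted as replicates there.

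Each sample was hybridised to a one-colour Agilent array, and 51.0% to 82.3% of the probes on an array were well above background. The 75th percentile of signal spanned 476 to 884 in the livers and DEN tumours and 952 to 4258 in the KO tumours, so the KO tumour arrays were the brighter ones. The 21 arrays lay on 6 slides scanned on 4 days, and no slide held more than 1 group. No other group shared the slide or the scan day of the WT livers, so slide, day and group cannot be told apart in any comparison with them. The Trp53 probe, on chromosome 11, had log2 levels of -3.57 ± 0.26 (SD, n = 4 mice) in WT liver and -5.57 ± 0.75 (SD, n = 4) in KO liver, -2.65 ± 0.11 (SD, n = 5) in DEN tumours and -4.71 ± 0.47 (SD, n = 5) in KO tumours. The sources used here do not say whether that probe lies inside the deleted part.

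Expression summed over a chromosome segment is often used as a rough view of dosage, because genes that neighbour each other share copy number while belonging to unrelated pathways. Chromosome 9 of the mouse is also rich in genes of differentiated liver: it holds the Apoa1 apolipoprotein cluster, the alpha class glutathione transferases, Cyp1a1 and Cyp1a2, Cyp8b1, and transferrin. Near its start lies a dense run of matrix metalloproteinase genes beside the apoptosis inhibitors Birc2 and Birc3 and the Hippo pathway effector Yap1, a stretch known for amplification in some mouse liver tumours. DNA copy number was not measured in these samples.

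The first 5 probes of the chromosome are shown because they weigh on the first window and are not ordinary genes. They are 60-base probes named by transcript identifiers only, and all 5 share the run set in capitals. Their letters resemble the major satellite repeat of mouse centromeres, an identification made from general knowledge and not from a table used here.

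probe at chr9:3003722-3003781 (mm9): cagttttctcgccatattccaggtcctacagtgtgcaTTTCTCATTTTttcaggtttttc

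probe at chr9:3004200-3004259 (mm9): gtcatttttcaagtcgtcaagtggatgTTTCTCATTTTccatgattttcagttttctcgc

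probe at chr9:3024224-3024283 (mm9): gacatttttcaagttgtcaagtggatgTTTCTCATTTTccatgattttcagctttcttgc

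probe at chr9:3030720-3030779 (mm9): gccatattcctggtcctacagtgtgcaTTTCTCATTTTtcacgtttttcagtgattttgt

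probe at chr9:3038257-3038316 (mm9): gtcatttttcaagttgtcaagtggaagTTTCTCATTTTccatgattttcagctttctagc

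Only 6 probes of the array share a run of 20 bases with these, and the sixth is placed on chromosome 2. Over the 21 arrays the 5 probes were correlated at 0.996 or above.

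The promoters of the metalloproteinase run are shown because the run includes Mmp7, whose shift was the highest on the chromosome. AP-1, the Fos and Jun dimer, is a classic activator of these genes and binds TGANTCA. These letters, searched on both strands in the 250 bases before each annotated start, occurred in 5 of the 7 metalloproteinase genes measured here and in none of the other 9 measured genes of the same list, which include Birc2, Tmem123 and Yap1. They occurred in 2113 of 27025 genes of the promoter table, which is 7.82%. The listed genes Mmp1a, Mmp1b, Mmp20 and Pgr did not pass the background rule and were not searched. Mmp3, Mmp8 and Mmp12 passed that rule through the tumour arrays. The searched genes were thus partly selected by tumour signal, and nothing is read from the difference in shares. The last 100 bases before the start follow, on the gene's strand, from RefSeq (GRCm38.p6), with the match in capitals.

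Mmp7: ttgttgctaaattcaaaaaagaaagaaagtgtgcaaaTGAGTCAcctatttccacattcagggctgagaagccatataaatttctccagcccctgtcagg

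Mmp3: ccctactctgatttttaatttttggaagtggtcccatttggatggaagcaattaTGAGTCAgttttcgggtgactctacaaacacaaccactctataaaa

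Mmp12: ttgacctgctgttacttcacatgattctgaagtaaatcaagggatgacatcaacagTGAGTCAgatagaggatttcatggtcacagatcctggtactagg

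Mmp13: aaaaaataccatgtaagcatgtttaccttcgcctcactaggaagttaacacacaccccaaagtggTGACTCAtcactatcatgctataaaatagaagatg

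Mmp10: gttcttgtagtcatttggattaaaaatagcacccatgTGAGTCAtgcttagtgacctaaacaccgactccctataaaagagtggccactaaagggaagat

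Birc2: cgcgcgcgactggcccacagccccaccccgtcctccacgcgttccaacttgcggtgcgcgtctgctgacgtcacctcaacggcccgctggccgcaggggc

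Mmp12 and Mmp7 have 2 annotated starts each and Birc2 has 2 as well; the start with the match is shown for the metalloproteinases and the one listed first for Birc2. The match lies 35 bases before the start in Mmp13, 44 in Mmp12, 46 in Mmp3 and 63 in both Mmp7 and Mmp10. Mmp8 and Mmp27 have no match in this window. The GGAATG letters bound by TEAD factors, the partners of Yap1, occurred in 1 of the 16 measured genes of the list, Yap1 itself, and in 14.4% of the genes in the table. A match of letters is a description and not a measured site.

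Over the whole chromosome the KO tumours read low and the DEN tumours did not. The median shift of the 1521 probes was -0.33, -0.32, -0.17, -0.35, -0.10 and -0.12 in KO tumours 1 to 6. In the DEN tumours it lay between -0.02 and 0.04, and in the livers, each set against the others, between -0.02 and 0.02. Every KO tumour thus lay below every DEN tumour and every liver with these probes. RefSeq placed 9 of them on another chromosome and did not list the names of 202 more. Without those probes, an alternative chosen after seeing the data, KO tumours 5 and 6 both read -0.05. DEN tumours 3, 4 and 6 read -0.04, -0.04 and -0.05 there, so the tumour groups were no longer separate. Chromosome 9 was the lowest of the 19 autosomes in KO tumours 1, 3 and 4, the second lowest in KO tumour 2, the third lowest in KO tumour 6 and the fourth lowest in KO tumour 5. At the other end, chromosome 15 had the highest median in all 6 KO tumours, at 0.23 to 0.49.

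**Figure D1:**
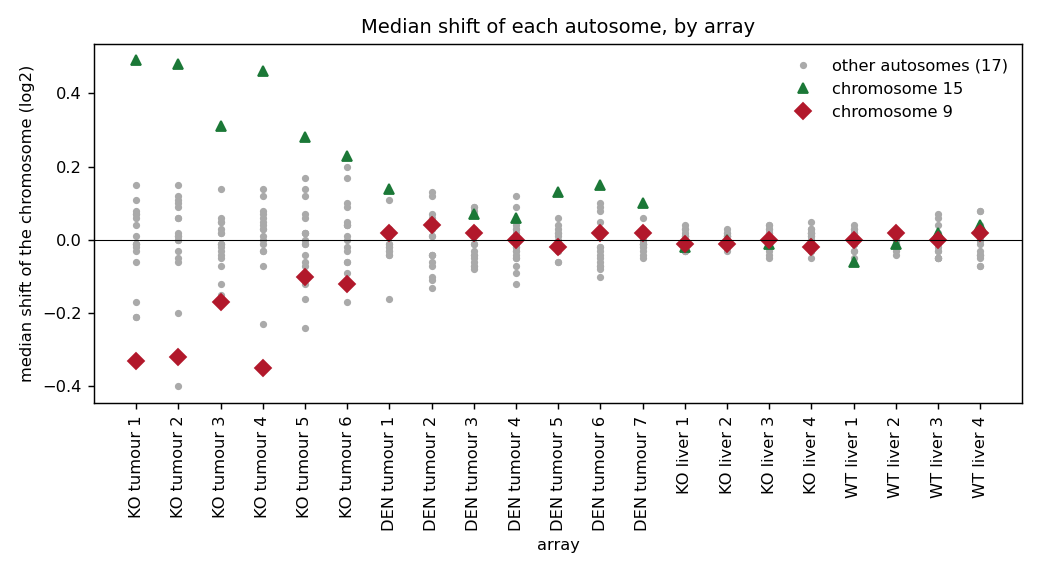
Median shift of every autosome (y axis, log2) on each of the 21 arrays (x axis), with chromosome 9 as red diamonds, chromosome 15 as green triangles and the other 17 autosomes as grey points; livers are set against the other livers. Chromosome 9 sits at -0.35 to -0.10 in the 6 KO tumours and at -0.02 to 0.04 in the 7 DEN tumours.

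The low medians came from a modest tilt of many probes. In KO tumours 1 to 6, 59.8%, 60.5%, 55.0%, 62.1%, 52.6% and 52.3% of the chromosome 9 probes lay below 0, against 49.1% to 49.7% of the probes on the other autosomes of the same tumours. Probes below 0 in all 6 KO tumours made up 34.3% of chromosome 9 (522 of 1521) and 26.0% of the other autosomes, and probes above 0 in all 6 made up 23.1% and 28.0%. In the DEN tumours the share below 0 in all 7 was 20.8% on chromosome 9 and 20.5% elsewhere. The spread among probes was far wider than the tilt, with an SD of shifts between 1.55 and 2.0 in the KO tumours.

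The size of the tilt moved with the probes and the scaling, and its sign stayed below 0 in each KO tumour under every setting named in this paragraph. With shifts adjusted for each probe's GC content and liver level, the medians of KO tumours 1 to 6 were -0.32, -0.30, -0.12, -0.28, -0.04 and -0.08. Against the KO livers only they were -0.29, -0.32, -0.11, -0.29, -0.05 and -0.11. With the 884 probes above background on all 21 arrays they were -0.37, -0.39, -0.17, -0.41, -0.10 and -0.09, and with normexp background correction and quantile scaling -0.15, -0.14, -0.06, -0.16, -0.03 and -0.04. KO tumours 1 to 3, DEN tumours 1, 5 and 7 and the 4 KO livers were scanned on the same day, and within that day, against those livers, the medians were -0.29, -0.32 and -0.11 in the KO tumours and 0.03, 0.01 and 0.03 in the DEN tumours.

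In the percentile scaling the KO tilt lay in many windows, with the first going the other way. A window of a tumour was counted when its median lay outside the range of the 8 livers and was at least 0.25 in size. Among the 78 pairs of a KO tumour and a window, 37 were counted as lower, or 47.4%, against 16.5% over all autosomes, and 7 as higher, or 8.97%, against 15.6%. With normexp (offset 50) and quantile scaling 2 KO pairs were counted as lower, or 2.56%, against 3.15% over all autosomes. In that scaling 6 were counted as higher, or 7.69%, against 3.61%. The chromosome medians of the KO tumours were smaller in size there, and few windows over all autosomes passed the unchanged cut of 0.25. The lower count therefore cannot show whether the excess of lower windows was absent in that scaling. Over the KO tumours, windows 5 and 11 had medians of -0.18 and -0.2 there, in place of -0.36 and -0.4. Windows 1 and 12 had 0.54 and 0.01, and all other windows lay below 0. Among the 91 DEN pairs none was counted as lower, against 7.71% over all autosomes, and 10 as higher, or 11%, against 7.59%. The direction of the DEN count turned with the background filter: it was 11 lower and 1 higher with no filter, and 4 lower and 2 higher with probes above background on all 21 arrays. Because these values chose the chromosome, nothing is read from the difference to the other autosomes.

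**Figure D2:**
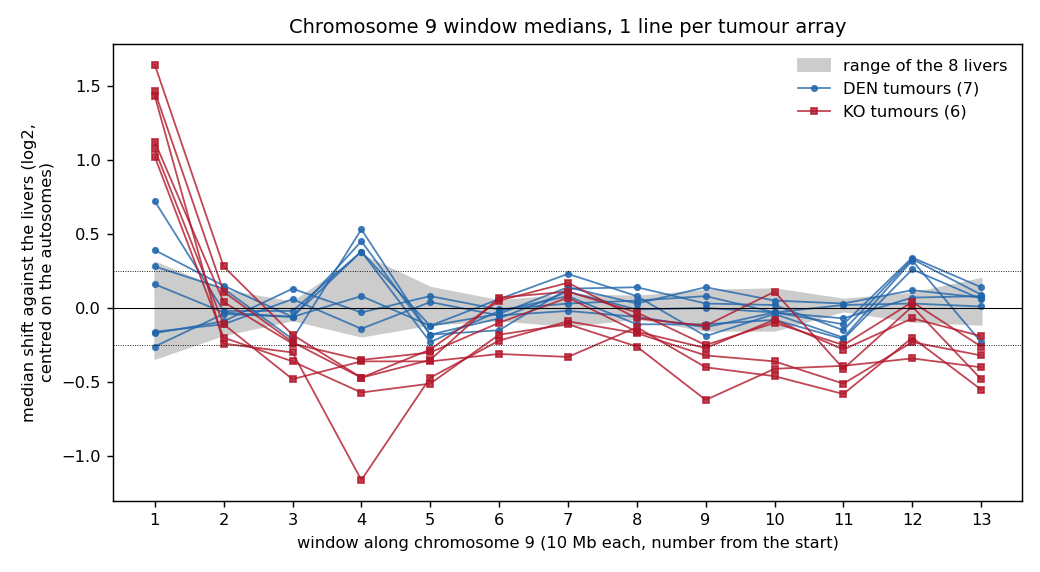
Median shift (y axis, log2, centred on the tumour's autosomes) in each of the 13 windows (x axis) for the 6 KO tumours (red) and the 7 DEN tumours (blue); the grey band is the range of the 8 livers and the dotted lines mark 0.25 above and below 0. The KO lines start between 1.02 and 1.64 in the first window and all lie below 0 in windows 3, 4, 5, 9, 11 and 13.

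In the first window the 6 KO tumours had medians of 1.02, 1.07, 1.12, 1.43, 1.46 and 1.64, against a liver range of -0.34 to 0.31, and all 6 were counted. Their median of 1.28 became 0.42 with no background filter and 0.54 with normexp and quantile scaling. Some of its probes, those of Mmp3, Mmp8, Mmp12 and Trpc6 among them, were well above background on at most 1 of the 8 liver arrays and so passed the filter through the tumours. The DEN tumours ran from -0.26 through a median of 0.16 to 0.72, with 2 of 7 counted as higher. In the fourth window the KO tumours ran from -1.16 through -0.47 to -0.35 and all 6 were counted as lower, while 4 DEN tumours were counted as higher. That window holds many olfactory receptor genes and is dim, with a median liver level of -3.91 and 42.7% of its 117 probes above background on all 21 arrays. With those probes alone its medians were -0.04 over the KO and 0.03 over the DEN tumours, in place of -0.47 and 0.38, and with normexp and quantile scaling -0.12 and 0.07. The livers themselves spanned -0.19 to 0.36 there, and all 4 KO livers lay below all 4 WT livers.

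The fifth window, with the apolipoprotein cluster, was counted as lower in all 6 KO tumours, at -0.51 to -0.28. The ninth, eleventh and thirteenth were each counted as lower in 5 of 6, with medians over the KO tumours of -0.29, -0.40 and -0.36. Windows 3 and 10 were counted as lower in 3 of 6. Windows 6, 7, 8 and 12 were counted as lower and window 2 as higher in 1 KO tumour each, so the tilt was not even along the chromosome. In the twelfth window 4 DEN tumours were counted as higher, the same 4 as in the fourth window, and these 4 shared a slide. All 10 DEN pairs counted as higher on the chromosome came from that slide. The median of the twelfth window over the DEN tumours was 0.26. It was 0.01 with probes above background on all 21 arrays and 0.05 with normexp and quantile scaling.

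Profiles along the chromosome resembled each other within the KO tumours. Over windows 2 to 13, leaving out the first, KO tumours 5 and 6 of the same mouse correlated at 0.87, and KO tumours 3 and 5, of different mice and slides, at 0.92. KO tumour 4 stood somewhat apart, with correlations of 0.27 to 0.63 to the others. Among the DEN tumours, those on the shared slide (2, 3, 4 and 6) correlated at 0.69 to 0.93 with each other. The pairs of tumours from the same DEN mouse, which lay on different slides, correlated at -0.47 (4 and 5) and -0.17 (6 and 7). These are descriptions over 12 windows that share 1 chromosome and the same liver reference.

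The signal of cell type markers differed in the KO tumours as well, and the part of cell makeup in the chromosome 9 values was not tested. A marker score here is the mean, over a list of markers, of the log2 level minus the probe's mean over the 8 livers. Unlike the shift, it is not centred on the autosomes. The score of 12 hepatocyte markers was -5.41 to -2.86 in the KO tumours and -1.81 to -0.63 in the DEN tumours. All 12 were well above background on at least 1 array of each group. The score of 8 biliary markers was 2.06 to 4.65 and -0.65 to 1.11 respectively, with Krt7 not above background in KO liver. The score of 8 matrix and stellate cell markers was 2.36 to 4.05 and -0.86 to 2.49. In bulk tissue, fewer cells of a type and less RNA per cell cannot be told apart.

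The first window held 39 probes and 34 gene names, and its genes did not move as a block. In the KO tumours 20 of the 39 probes lay above 0 in all 6 and 7 lay below 0 in all 6. In the DEN tumours 7 were above 0 in all 7 and 7 below. Of the list of 20 genes fixed for this stretch, 16 passed the background rule and Mmp1a, Mmp1b, Mmp20 and Pgr did not. Of the 16, 9 were called higher and 4 lower in KO tumours against KO livers by limma at an adjusted p below 0.05, with a median log2 fold change of 1.63, where 21.5% of all tested probes were called higher and 28.9% lower. In DEN tumours against WT livers 3 were called higher and 1 lower, with a median of 0.23, where 10.3% and 10.7% of all probes were called. The rule used both contrasts, so nothing is read from these counts.

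**Figure D3:**
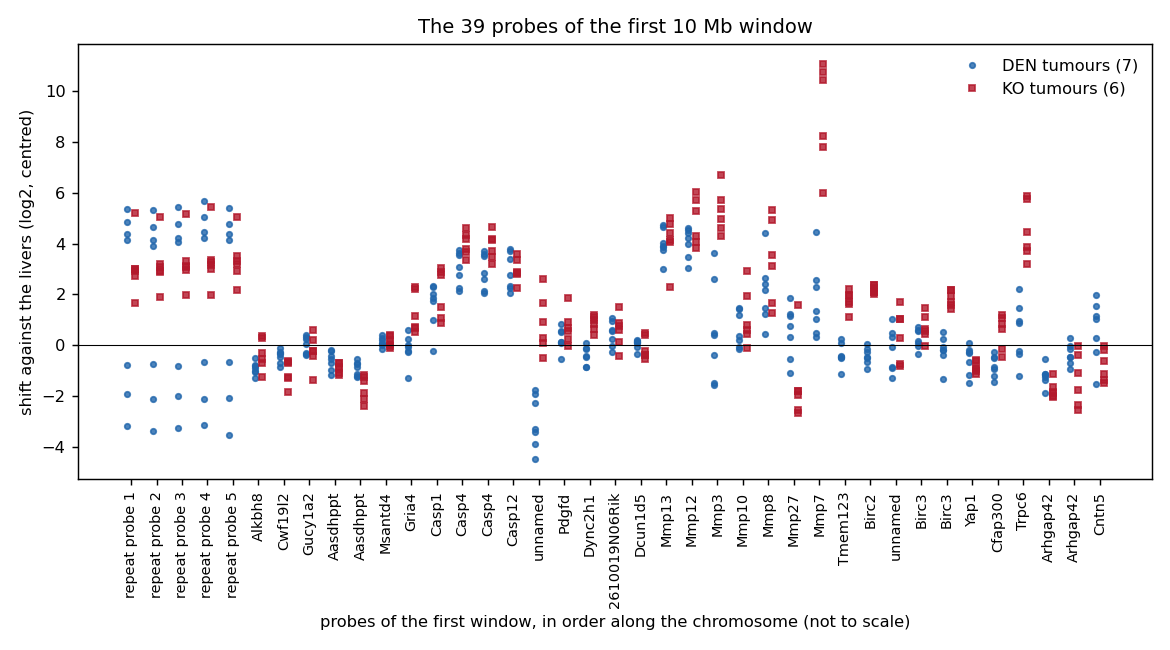
Shift against the livers (y axis, log2, centred) of the 39 probes of the first window in order along the chromosome (x axis, not to scale), with 1 point per tumour array, KO tumours in red and DEN tumours in blue. Mmp7 reaches 11.08 in a KO tumour, Birc2 lies at 2.03 to 2.38 in the KO tumours, and Yap1 lies below 0 in all 6 of them; probes dim in liver, such as Mmp8 and Mmp12, are set against readings near background.

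Mmp7, matrilysin, a secreted protease made by epithelial cells, had the largest shift of the chromosome. Its probe (chr9:7697641-7697700) read log2 levels of -4.31, -3.60, -4.15 and -3.79 in WT liver and -4.45, -4.67, -5.34 and -4.89 in KO liver, where it was not well above background on any array. The KO tumours ran from 1.28 through a median of 4.65 to 6.36 and the DEN tumours from -3.91 through -2.82 to 0.22. Every KO tumour lay above every DEN tumour and liver, and KO tumours were at least 558-fold above KO livers, a bound set at the lowest signal that is well above background.

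Birc2, the ubiquitin ligase cIAP1 that blocks apoptosis downstream of TNF receptors, read evenly high in the KO tumours. Its probe (chr9:7818688-7818747) read 0.26, 0.43, 0.38 and 0.29 in WT liver and -0.04, -0.09, 0.02 and -0.48 in KO liver. The KO tumours ran from 1.65 through 1.99 to 2.37 and the DEN tumours from -0.76 through -0.20 to 0.30. The KO tumours did not overlap any other group, and their log2 fold change against KO livers was 2.20 ± 0.18 (SE).

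Tmem123, a cell surface glycoprotein also called porimin, lies next to Birc2 (probe at chr9:7793672-7793731). It read 1.64, 1.46, 1.5 and 1.98 in WT liver and 1.22, 1.32, 1.29 and 1.13 in KO liver. The KO tumours ran from 2.26 through 3.04 to 3.31 and the DEN tumours from 0.37 through 1.23 to 1.84, again with no overlap, at a log2 fold change of 1.67 ± 0.23 against KO livers (SE). Birc3, the cIAP2 paralogue, had 2 probes with different readings: 0.55 ± 0.25 (SE) for the brighter and 1.82 for the other, which was well above background on 13 of 21 arrays.

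Yap1, the transcriptional co-activator held in check by the Hippo kinases, went the other way although it lies just beyond Birc3 (probe at chr9:7932025-7932084). It read 3.0, 3.26, 2.62 and 2.75 in WT liver and 3.38, 3.22, 3.31 and 3.54 in KO liver. The KO tumours ran from 1.67 through 1.97 to 2.26, below all 8 livers, with a log2 fold change of -1.34 ± 0.24 (SE) against KO livers. The DEN tumours ran from 1.80 through 2.81 to 3.15 and overlapped both the livers and the KO tumours.

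The other metalloproteinases did not follow a single pattern. Mmp12, the macrophage elastase, was not well above background on any liver array and was at least 9.44-fold higher in KO tumours against KO livers and at least 7.78-fold higher in DEN tumours against WT livers. Mmp13, a collagenase, shifted by 2.31 to 5.0 in the KO tumours and by 3.02 to 4.75 in the DEN tumours, against livers of which 1 in each group was well above background. Mmp3, stromelysin, was at least 9.81-fold higher in KO tumours against KO livers. It was well above background on all 6 KO tumour arrays, on 3 of 7 DEN arrays and on 1 liver array, WT liver 4.

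Mmp8, a neutrophil collagenase, was not well above background on any liver array and was at least 1.57-fold higher in KO and 1.42-fold higher in DEN tumours. Mmp10 shifted by -0.11 to 2.93 in the KO tumours. Mmp27 shifted by -2.66 to 1.58, with a log2 fold change of -1.89 ± 0.50 (SE) against KO livers. Metalloproteinase genes are similar in sequence and their probes may share signal.

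The inflammatory caspases upstream of the metalloproteinases read above the liver mean in nearly all tumours. Casp4, the receptor of intracellular lipopolysaccharide, shifted by 3.34 to 4.62 at the first of its 2 probes in the KO tumours and by 2.12 to 3.75 in the DEN tumours. Casp12 shifted by 2.27 to 3.61 and 2.04 to 3.80, against livers of which 2 WT and no KO arrays were well above background. Casp1, which activates interleukin 1 beta, shifted by 0.88 to 3.03 and -0.23 to 2.33.

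At the end of the window, Trpc6, a calcium channel, was not well above background on any liver array, and was at least 4.56-fold higher in KO tumours against KO livers. Arhgap42, a GTPase activating protein, lay below 0 in all tumours of both groups at its brighter probe, by -2.02 to -1.13 in KO and -1.87 to -0.54 in DEN tumours. Aasdhppt, which adds the pantetheine arm to acyl carrier proteins, lay below 0 in all 13 tumours at both of its probes, and Cwf19l2, a splicing factor, in all 13 as well.

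The 5 repeat probes at the start of the window differed between the slides of the DEN tumours and among the livers. Their mean shift was 2.96, 3.14, 5.18, 1.93, 3.26 and 3.01 in KO tumours 1 to 6. In the DEN tumours it was 5.44, 4.10, 4.82 and 4.32 on the slide with tumours 2, 3, 4 and 6 and -2.04, -3.30 and -0.72 on the slide with tumours 1, 5 and 7. Tumours 4 and 5 came from the same mouse and read 4.82 and -3.30, and tumours 6 and 7, also of 1 mouse, read 4.32 and -0.72.

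The livers ranged as widely on these probes, at -2.03, -0.75, 0.68 and -3.97 in KO liver and -0.44, 0.41, 4.58 and 1.61 in WT liver. Without these 5 probes and the metalloproteinase genes, the median of the first window over the KO tumours was 0.54 in place of 1.28. That alternative was chosen after seeing the data.

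Along the rest of the chromosome, the brightest liver genes of each counted window were picked by liver level and not by shift, and most of them were lower in the KO tumours. In the fifth window these were Hspa8, a constitutive chaperone, Apoa1 and Apoc3. In the eleventh they were Trf, which encodes transferrin, Abhd14b, a hydrolase-fold protein, and Gpx1, a selenium-dependent peroxidase. Trf read 9.23, 9.16, 8.73 and 8.99 in WT liver and 9.22, 9.28, 9.53 and 9.11 in KO liver, and 7.01, 7.72 and 8.12 as lowest, median and highest in the KO tumours, which lay below all livers. Abhd14b had a log2 fold change of -4.64 ± 0.27 (SE) in KO tumours against KO livers and -1.68 ± 0.27 in DEN tumours against WT livers.

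In the sixth window, Etfa, which carries electrons from fatty acid oxidation to the respiratory chain, read 6.48, 6.17, 5.84 and 5.79 in WT liver and 6.65, 6.64, 6.83 and 6.75 in KO liver. The DEN tumours ran from 4.58 through 5.04 to 5.52 and the KO tumours from 2.51 through 3.19 to 3.55. The ranges of livers, DEN tumours and KO tumours were separate at this probe. Its log2 fold changes were -3.62 in KO tumours against KO livers and -0.96 in DEN tumours against WT livers. The other Etfa probe, well above background on all 21 arrays, gave -3.89 and -0.18, so it did not share the DEN fall. Elovl5, a fatty acid elongase of the eighth window, had a log2 fold change of -2.91 ± 0.24 (SE) in KO tumours and -0.51 ± 0.24 in DEN tumours. Me1, malic enzyme in the ninth window, had -2.32 ± 0.35 and -2.22 ± 0.35 in the same order.

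Some bright genes of the chromosome depended on the scaling. The translation factor Eef1a1, the ribosomal protein genes Rpsa and Rpl14, and probes named Rps27, Gm10653, Gm5745 and Gm5921 had log2 fold changes of -1.09 to -0.48 in KO tumours against KO livers in the percentile scaling, and their values turned positive with normexp and quantile scaling. The Rpsa value was also not shared by its other 3 probes, at 0.45, -0.11 and 0.14. RefSeq placed 9 members, among them probes named Rps27, Mif and Atp5j2, on another chromosome, so their signal may come from near-identical copies and their position is uncertain.

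The gene lists that follow were compared in the contrasts that chose the chromosome, so their counts are a description and nothing is read from them. Of 9 lipid transport genes, all past the background rule, 7 were called lower and 1 higher in KO tumours against KO livers, where 28.9% and 21.5% of all probes were called, with a median log2 fold change of -3.36. In DEN tumours against WT livers 3 were called lower and 2 higher, where 10.7% and 10.3% of all probes were called, with a median of 0.48. Apoa5, which activates lipoprotein lipase, read 3.54, 3.45, 3.61 and 3.40 in WT liver and 3.05, 4.0, 3.1 and 3.18 in KO liver. It ran from -4.11 through -1.63 to 0.05 in the KO tumours and from -0.17 through 1.89 to 3.06 in the DEN tumours.

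Apoa4, another apolipoprotein of the cluster, differed in direction between the tumour groups. Its log2 fold change was 4.13 ± 0.61 (SE) in DEN tumours against WT livers and -2.07 ± 0.61 in KO tumours against KO livers. The difference between these changes was not tested. Apoc3, an inhibitor of lipoprotein lipase, had -4.65 ± 0.58 in KO tumours at its brighter probe and -1.38 at the other. Lipc, hepatic lipase, had -5.26 ± 0.50. Sorl1, a sorting receptor, was the list member called higher, at 1.58 ± 0.33.

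The glutathione, drug and mitochondrial enzyme genes were the most uniform of the lists. All 19 listed genes found on chromosome 9 of the array passed the background rule, 18 were called lower in KO tumours against KO livers (28.9% of all probes were) and 12 in DEN tumours against WT livers (10.7% of all probes were), none was called higher in either (at an unadjusted p below 0.05 in limma, 0 and 1), and the medians were -3.09 and -1.22. Over all probes of the chromosome the medians were -0.45 and 0.03. Cyp8b1, the sterol hydroxylase that sets the cholic acid share of bile acids, read 0.51, 1.06, 0.73 and 1.10 in WT liver and -0.10, 0.08, 0.73 and -0.37 in KO liver. The KO tumours ran from -7.21 through -6.70 to -3.90 and the DEN tumours from -7.41 through -5.82 to -1.07, with log2 fold changes of -6.45 ± 0.72 and -6.33 ± 0.72 (SE).

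Gpx1 read 8.17, 7.51, 7.82 and 7.82 in WT liver and 8.10, 8.12, 8.04 and 8.28 in KO liver. It ran from 5.01 through 5.56 to 6.37 in the KO tumours and from 5.23 through 5.69 to 7.64 in the DEN tumours, so both tumour groups overlapped each other and only 1 DEN tumour reached the livers. Cyp1a2, which oxidises aromatic amines and caffeine, had log2 fold changes of -6.24 ± 0.78 and -4.13 ± 0.78 in KO and DEN tumours (SE). Gsta1, an alpha class glutathione transferase, was the list member not called in KO tumours, at -2.70 ± 1.11, and its relative Gsta2 had -4.71 ± 1.09. The Gsta genes are close in sequence and their probes may share signal.

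**Figure D4:**
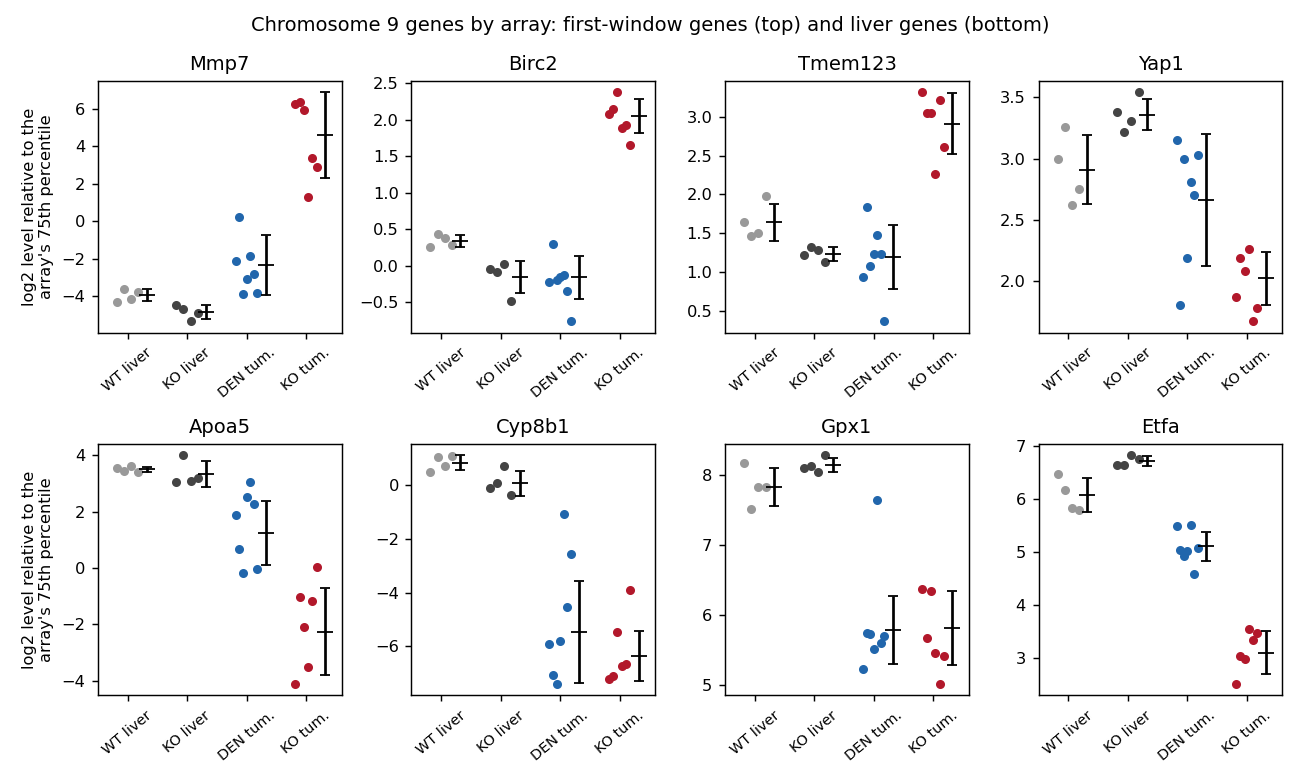
Log2 level relative to the array's 75th percentile (y axes) of Mmp7, Birc2, Tmem123 and Yap1 of the first window (top) and Apoa5, Cyp8b1, Gpx1 and Etfa (bottom) on each array of the 4 groups (x axes), with the mean ± SD over mice beside the points. Birc2 lies at 1.65 to 2.37 in the KO tumours and at or below 0.43 elsewhere, while Etfa falls from 5.79 or above in the livers to 3.55 or below in the KO tumours.

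Among genes of immune cells, 2 lists held more higher than lower calls. Of 10 chemokine receptor genes past the background rule, 6 were called higher and none lower in KO tumours against KO livers (7 and 0 at an unadjusted limma p below 0.05), where 21.5% and 28.9% of all probes were called, with a median of 1.58. In DEN tumours against WT livers 4 were called higher, where 10.3% of all probes were, with a median of 1.02. Ccr1 did not pass the rule. Cx3cr1, the fractalkine receptor of monocytes, had 4.70 ± 0.45 (SE) in KO and 1.89 ± 0.45 in DEN tumours. Ccr2, the receptor of inflammatory monocytes, was not well above background in any KO liver and was at least 14.2-fold higher in the KO tumours.

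Of 9 genes of the T cell receptor complex and adhesion, 7 were called higher and 1 lower in KO tumours against KO livers, where 21.5% and 28.9% of all probes were called, with a median of 2.82. Icam1, an adhesion ligand of leukocytes, had 3.58 ± 0.28 (SE). Cd3g and Cd3d, chains of the T cell receptor complex, had 3.04 ± 0.57 and 3.23 ± 0.52. Cd3e, their partner chain, had 0.15 ± 0.28. Mcam, called lower at -2.11 ± 0.58, read 1.99 at its other probe. The marker score of the T cell markers of the whole array, which include these Cd3 genes, was 0.71 to 2.65 in the KO tumours. In the DEN tumours it was 0.30 to 1.89, and the part of cell makeup was not tested. The scores of other immune markers were not high in every KO tumour either. The marker score was -1.18 to 3.21 for macrophage, -0.84 to 3.64 for neutrophil and -0.92 to 4.4 for B and plasma cell markers.

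Of 11 DNA damage and repair genes past the rule (Npat was not), 2 were called higher and 2 lower in KO tumours and none in DEN tumours, where 50.3% and 21% of all probes were called in either direction. At an unadjusted limma p below 0.05 there were 2 higher and 5 lower in KO tumours and 5 lower in DEN tumours. Topbp1, which activates the kinase ATR, had 1.20 ± 0.24 (SE) and Mre11a, a nuclease at DNA breaks, 0.71 ± 0.18. Rad54l2, a helicase-like protein, had -1.11 ± 0.25. Atm and Atr, the damage kinases, had -0.42 ± 0.18 and -0.49 ± 0.20 at their brighter probes. Their other probes, well above background on 13 and 5 arrays, gave 0.17 and 0.13, so neither fall was shared.

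Of 27 signalling and chromatin genes, 5 were called higher and 9 lower in KO tumours, where 21.5% and 28.9% of all probes were called, with a median of -0.20, the same as over all probes of the array. In DEN tumours 6 were called higher and 5 lower, where 10.3% and 10.7% of all probes were called. Tgfbr2, the type II receptor of TGF-beta, was higher in both, at 2.39 ± 0.22 and 1.75 ± 0.22 (SE). Dnmt1, the maintenance DNA methyltransferase, had 1.56 ± 0.20 in KO tumours and -0.14 ± 0.20 in DEN tumours, and that contrast was not tested. Keap1, the adaptor that marks NRF2 for degradation, and Rora, a nuclear receptor of the clock, had -1.09 ± 0.22 and -1.78 ± 0.20 in KO tumours. The other Rora probe, well above background on 5 arrays, gave 0.43. Ctnnb1, beta-catenin, had 0.37 ± 0.17.

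Of all 1521 members, 825 were called in KO tumours against KO livers, or 54.2%, against 50.3% of all probes. Of these, 277 were higher (18.2%, against 21.5% of all probes) and 548 lower (36.0%, against 28.9%). In DEN tumours against WT livers 349 were called, or 22.9%, against 21% of all probes, of which 168 were higher (11%, against 10.3%) and 181 lower (11.9%, against 10.7%). With slide as a random block the 349 became 41, of which 31 were higher (2.04%, against 1.20% of all probes) and 10 lower (0.657%, against 0.523%). The 825 became 509, of which 174 were higher (11.4%, against 11.7% of all probes) and 335 lower (22.0%, against 15.6%). Other genes picked for high measured fold changes in KO tumours were not well above background on any KO liver array, so they have bounds and no order: Stra6, the retinol-binding protein receptor, at least 69.0-fold higher, the axon guidance protein Sema7a, at least 43.5-fold, the collagen chain Col6a5, at least 15.8-fold, and the matrix protein Cilp, at least 13.8-fold. The deepest falls beside those of Cyp8b1, Cyp1a2 and Apoa5 were those of 1810046K07Rik, at -5.64, and Gm10639, a glutathione transferase-like gene, at -5.42.

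The genes with high fold changes in the DEN tumours were in part high in the KO tumours too, and no difference between the tumour groups was tested. Gldn, gliomedin, had a log2 fold change of 9.01 ± 1.05 (SE) against WT livers, of which 1 array was well above background, and it was well above background on 7 of 7 DEN and 2 of 6 KO tumour arrays. Igdcc4, an immunoglobulin superfamily receptor, had 6.60 ± 0.53 in DEN tumours, also against 1 such WT liver array, and was at least 27.7-fold higher in KO tumours against KO livers. Osbpl10, an oxysterol-binding protein, had 5.25 ± 0.34 in DEN and 2.37 ± 0.34 in KO tumours, and Mst1r, the receptor of macrophage-stimulating protein, 4.59 ± 0.46 and 3.72 ± 0.46. The deepest falls after those of Cyp8b1 were of Usp2, a deubiquitinase, at -4.76 ± 0.98, and of Cyp1a2.

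Between the tumour-free livers, the comparison that the choice of the chromosome did not use, KO livers differed from WT livers at 134 of the 1521 probes, or 8.81%, against 8.14% of all probes. Of these, 21 were higher (1.38%, against 1.66% of all probes) and 113 lower (7.43%, against 6.48%), so the shares were near those of the whole array. With the 884 probes above background on all 21 arrays the calls were 15 higher and 29 lower (1.70% and 3.28%, against 2.04% and 2.79% of all such probes). With normexp and quantile scaling they were 39 higher and 83 lower (2.56% and 5.46%, against 2.77% and 4.93% of all probes). In both settings the shares stayed near those of the whole array, and lower calls outnumbered higher calls less strongly. The median log2 difference was -0.07 on chromosome 9 and -0.06 over all probes. None of the 39 probes of the first window was called, those of Mmp7, Birc2, Tmem123 and Yap1 included, and 4 had an unadjusted limma p below 0.05.

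With slide as a random block no chromosome 9 probe was called. In that limma fit, which took the arrays separately, 98 had an unadjusted p below 0.05, against 355 in the main fit. Leaving out WT liver 3 gave 46 calls, WT liver 4 or KO liver 2 gave 64, and KO livers 1, 3 and 4 gave 70, 76 and 81.

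Nt5e, the surface enzyme CD73 that makes adenosine, had the largest rise. It read -1.75, -1.46, -1.83 and -1.34 in WT liver and 1.45, 1.97, 1.90 and 1.41 in KO liver, with no overlap, a log2 difference of 3.28 ± 0.54 (SE, limma adjusted p = 0.0019). Tent5a, a poly(A) polymerase, read -5.27, -3.99, -3.89 and -4.65 against -1.99, -2.97, -2.64 and -2.88, a difference of 1.83 ± 0.40 (limma adjusted p = 0.012), and its other probe gave 1.04 (adjusted p = 0.045).

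Mpzl2, an adhesion protein of epithelia, read 2.86, 2.72, 2.35 and 2.37 against 4.11, 4.12, 4.02 and 4.26, a tight separation of 1.55 ± 0.29 (SE, limma adjusted p = 0.005). Endod1, a nuclease-like protein, differed by 1.55 ± 0.42 (adjusted p = 0.032). Sorl1 differed by 1.54 ± 0.35 (adjusted p = 0.014), but its other probe gave 0.43 (adjusted p = 0.46).

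Among the lower genes, Cilk1, a kinase of primary cilia, read 1.22, 0.50, 0.34 and 0.71 in WT liver and -2.47, -2.10, -2.25 and -1.61 in KO liver. The difference was -2.80 ± 0.30 (SE, limma adjusted p = 5.4e-05), and its other probe gave -0.68 (adjusted p = 0.10). Zfp660, a zinc finger protein, differed by -4.05 ± 0.60 (adjusted p = 0.00087). Cspg5, a proteoglycan of the nervous system, was at least 9.73-fold lower (adjusted p = 9.5e-05). The olfactory receptor Olfr910 differed by -3.53 ± 0.43 (adjusted p = 0.00016), and Olfr835 was at least 2.41-fold lower (adjusted p = 0.0028).

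Of the listed genes, Chek1, the checkpoint kinase that acts after ATR, read -3.02, -3.46, -2.27 and -2.06 in WT liver and -4.84, -4.89, -4.75 and -4.69 in KO liver, where it was well above background on 1 array. The difference was -2.09 ± 0.33 (SE, limma adjusted p = 0.0015). Tgfbr2 read 1.31, 1.56, 1.82 and 1.71 against 0.79, 0.46, 0.49 and 0.41, a difference of -1.07 ± 0.23 (adjusted p = 0.011), with -1.09 (adjusted p = 0.016) at its other probe. Ccr8 was at least 3.02-fold lower (adjusted p = 0.022), with -1.03 (adjusted p = 0.51) at its other probe. Ccr9 was at least 1.51-fold lower (adjusted p = 0.026). At the brightest probe of each gene, no other listed gene was called lower, and Sorl1 was the only one called higher. Other probes were called lower for Apoc3 (-2.44, limma adjusted p = 0.00033), Neil1 (-1.06, adjusted p = 0.027), Smarcc1 (-1.3, adjusted p = 0.0092) and Mras (-1.43, adjusted p = 0.026). Other probes of Etfa (0.94, adjusted p = 0.01) and Tcf12 (1.11, adjusted p = 0.046) were called higher.

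**Figure D5:**
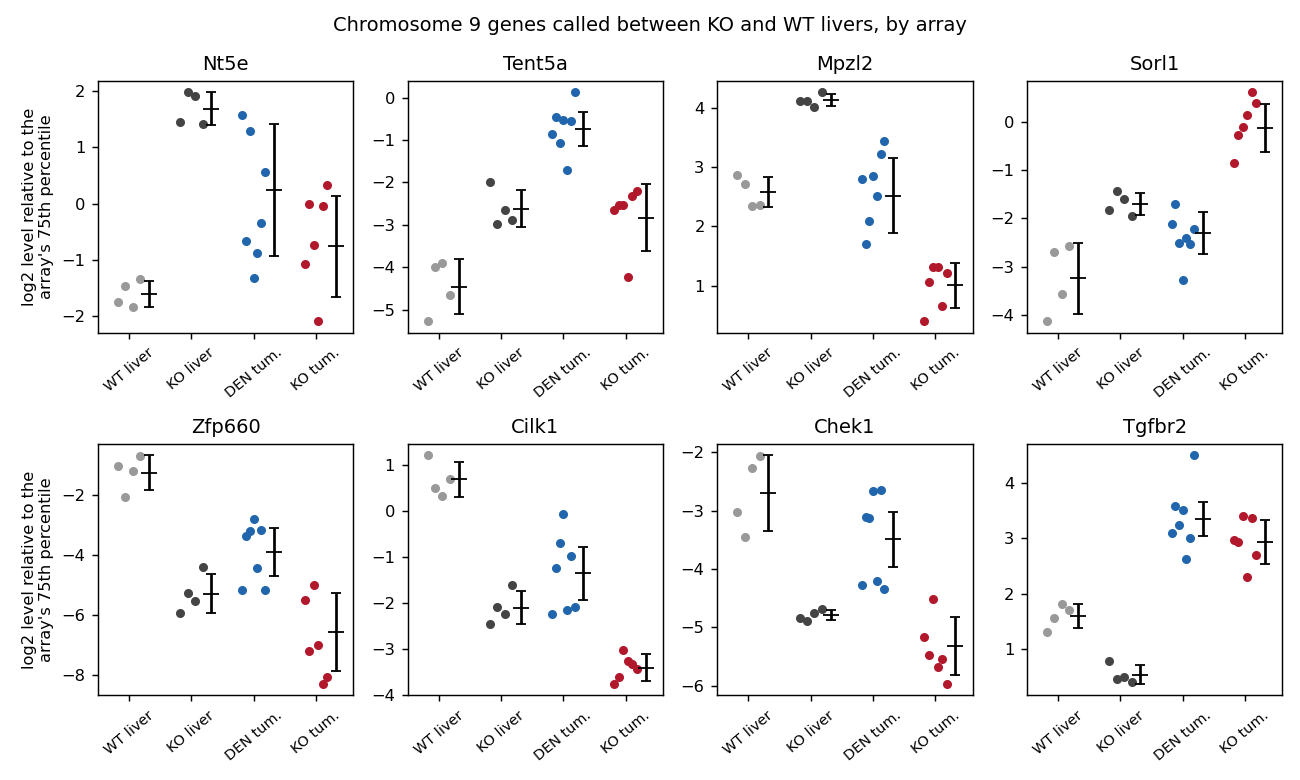
Log2 level relative to the array's 75th percentile (y axes) of 8 chromosome 9 genes called between KO and WT livers, on each array of the 4 groups (x axes), with the mean ± SD over mice beside the points. Nt5e, Tent5a, Mpzl2 and Sorl1 (top) lie higher and Zfp660, Cilk1, Chek1 and Tgfbr2 (bottom) lower in all 4 KO livers than in all 4 WT livers. Tgfbr2 lies above all 8 livers in all 13 tumours.

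Members near the background limit were very dim. The 47 probes well above background on exactly 4 arrays had a median liver level of -6.54, and the 77 chromosome 9 probes left out with 3 arrays had one of -6.69.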

How the data were processed

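RNA of 21 mouse samples was measured on one-colour Agilent 4x44K arrays. Spots were quantified by the authors with Agilent Feature Extraction 10.7.3.1, per the submitters' processing notes, and the processed spot intensity was deposited with probe names, mm9 positions and background flags, per the file headers. The authors' deposited table of log2 values, with array medians of -0.57 to 0.30, served as an alternative. In it every probe has a median of 0 over the arrays, and how the authors scaled the arrays stays unknown. From the intensity, log2 values minus each array's 75th percentile were taken, and spots of a probe were averaged. The 30395 probes well above background on at least 4 arrays were fitted with limma 3.58.1 (R 4.3.3) as 4 group means over 18 mice, with Benjamini-Hochberg adjustment over all of them at 0.05. Window medians were computed in Python 3.11.15. Both steps were tested on simulated data. Gene names were updated from RefSeq through accessions (26761 probes), current symbols (3746), synonyms (623) or other accessions (102), and 8197 kept the file's name. The chromosome and the gene lists were chosen with earlier results of these data known. Genes named are the 3 brightest in liver of each counted window, the 5 highest and 5 lowest called changes of each comparison with separate groups, listed genes, and the genes of the first window. The labels give no separate cultures or litters, so p-values of the fits over mice measure the spread between mice. In the fit with slide as a random block, tumours of 1 mouse counted separately. The number of arrays limits the precision. Some genes of the lists are counted but not reported here by name.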

Additional observations from a re-analysis of the deposited data

Results flagged for a closer look

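Among 284 groups of 4 to 7 values looked at, 15 had a value far from the others, and chance flags about 1 in 20 groups. KO tumour 4 accounted for 6 of them: Mmp13 was low at -3.84 (others -2.22 to -1.32), Endod1 at 0.43 (1.29 to 1.75), Stra6 at -0.41 (1.71 to 2.05) and Tent5a at -4.23 (-2.64 to -2.19), while Arhgap42 was high at -2.48 (-3.37 to -3.05) and Angptl8, a regulator of lipoprotein lipase, at 2.94 (-0.53 to 0.51). In KO tumour 2 the median of the fourth window was -1.16 (others -0.57 to -0.35), and in KO tumour 6 Cx3cr1 was low at 1.98 (3.11 to 3.75). In DEN tumour 2 the median of the thirteenth window was -0.23 (0.01 to 0.14), and in DEN tumour 5 Gpx1 was 7.64 (5.23 to 5.74).

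Among the livers, Hspa8 was 8.0 in KO liver 4 (7.73 to 7.76) and Apoa5 4.0 in KO liver 2 (3.05 to 3.18). In WT liver 3 the median of the fourth window was 0.36 (0.06 to 0.09), in WT liver 2 Dync2h1 was -2.17 (-2.69 to -2.61), and in WT liver 4 Mmp3 was -2.73 (-7.25 to -6.78). No value of 70 looked at moved one way in every KO tumour and the opposite way in every DEN tumour.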

How the results depend on the processing

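The 54 counted pairs of tumour and window became 9 with normexp and quantile scaling (2 KO lower, 6 KO higher, 1 DEN higher), 19 with the other tumours of the group as reference and 125 with 5 Mb windows, which double the windows; leaving out 1 liver gave 48 to 53. With the other tumours as reference the chromosome medians of KO tumours 3, 5 and 6 turned to 0.15, 0.27 and 0.23 and the KO medians of windows 3, 4, 9, 11 and 13 to 0.02, 0.18, 0.12, 0.04 and 0.09, since a tilt that tumours share is subtracted there. Without the background filter the DEN median of the fourth window turned to -0.19. With normexp and quantile scaling the KO tumour log2 fold changes against KO livers turned to 0.23 (Smarca4), 0.24 (Gm10653), 0.45 (Gm5745), 0.01 (Eef1a1), 0.15 (Rps27), 0.24 (Gm5921), 0.36 (Rpsa) and 0.22 (Rpl14); the cause was not tested. The 134 calls between livers became 44 with probes above background on all 21 arrays (15 higher, 29 lower), 0 with slide as a random block and 269 with only the 8 livers, and 46 to 134 without 1 liver. The 825 KO tumour calls became 509 and the 349 DEN tumour calls 41 with the slide block, and 763 to 880 and 270 to 338 without 1 mouse. Of the values of named genes under the alternatives, 2534 kept direction and call, 193 lost the call and 8 reversed. No paired analysis was possible because no tumour shares a mouse number with a liver and replicate numbers here follow accession order.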

Other observations

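WT liver 4 had higher T cell, B and plasma cell and cell cycle marker scores than the other livers. Its macrophage and neutrophil scores, at -0.05 and -0.13, lay within the range of the other livers. Its marker score was 1.49 for T cell, 2.92 for B and plasma cell and 1.68 for cell cycle markers. The other WT livers had at most -0.11, 0.22 and -0.06. Within chromosome 9 the same liver had the highest WT levels of Cd3g (-0.50 against -3.48 to -2.80), Cd3d (-0.79 against -3.84 to -3.47) and Thy1, a T cell surface protein (0.02 against -1.96 to -1.70).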
